A study of Mus musculus with 55 samples.

Results

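The Zic genes encode zinc finger transcription factors. The 4 members described here, Zic1, Zic2, Zic4 and Zic5, are 4 of the 47937 genes in the deposited bulk count table, and were picked by name because earlier results of these data had shown them higher in islets without Eed. Their βEedKO levels are therefore a description, and no test of them is used as support. Islets were from male mice of the C57B6/J strain, in 16 libraries. Wild-type (WT), Eed heterozygous (HET) and βEedKO (KO) mice had 3 libraries each at 8 weeks of age. At 25 weeks there were 3 wild-type, 2 heterozygous and 2 βEedKO libraries. βEedKO mice carried floxed Eed and a Cre transgene driven by the insulin promoter (RIP-cre), so that Eed, a core subunit of the Polycomb repressive complex PRC2, was deleted in β cells while the other cells of the islet kept it. Libraries held islets of 1 to 2 animals, and those of βEedKO at 25 weeks islets of at least 4. Whether wild-type and heterozygous mice carried Cre is not given in the sources used here.

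Zic proteins bind DNA through a zinc finger domain related to that of the GLI factors of Hedgehog signalling. In the embryo they act in the neural plate border, the neural crest, the dorsal neural tube and the cerebellum, and Zic2 also acts in the forebrain. The genes lie in head-to-head pairs, and they are classical Polycomb targets: PRC2 places H3K27me3 on such genes, and where H3K4me3 is also present the promoter is called bivalent. Adult β cells are not known to use these factors. Zic1 is also a known marker of brown fat, and it was among the ectopic transcription factors that the study expressed in a β cell line.

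On GRCm38, Zic1 (ENSMUSG00000032368.14, minus strand) lies on chromosome 9 from 91358058 to 91365810 and Zic4 (ENSMUSG00000036972.14, plus strand) from 91362413 to 91389348, so that the outermost Zic4 start lies inside Zic1. Zic5 (ENSMUSG00000041703.7, minus strand) lies on chromosome 14 from 122456795 to 122465677, and Zic2 (ENSMUSG00000061524.8, plus strand) from 122475435 to 122479852. Zic1 and Zic4 share 60 bp of exon on opposite strands. Zic4 also shares 468 bp with Gm37477, on the opposite strand. The library kit does not mark strand, so reads in these stretches cannot be told apart. Zic2 and Zic5 share 0 bp, and their start sites are 9758 bp apart.

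The promoter sequences from RefSeq on GRCm38.p6 are shown because every start site lay in bivalent chromatin. Of the 4 members 3 were matched, Zic1, Zic4 and Zic5. Each sequence covers 250 bases before and 50 after a start site, 5′ to 3′ on the gene's own strand, with CG dinucleotides in capitals.
Zic1, chr9:91365719-91366018, minus strand: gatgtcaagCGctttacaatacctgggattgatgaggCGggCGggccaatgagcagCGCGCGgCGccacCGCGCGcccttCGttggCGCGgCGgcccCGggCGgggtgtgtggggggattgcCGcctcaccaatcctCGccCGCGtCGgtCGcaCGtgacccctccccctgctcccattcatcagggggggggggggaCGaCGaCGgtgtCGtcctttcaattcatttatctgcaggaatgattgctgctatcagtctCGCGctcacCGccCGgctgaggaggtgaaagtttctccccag
Zic4, chr9:91368722-91369021, plus strand: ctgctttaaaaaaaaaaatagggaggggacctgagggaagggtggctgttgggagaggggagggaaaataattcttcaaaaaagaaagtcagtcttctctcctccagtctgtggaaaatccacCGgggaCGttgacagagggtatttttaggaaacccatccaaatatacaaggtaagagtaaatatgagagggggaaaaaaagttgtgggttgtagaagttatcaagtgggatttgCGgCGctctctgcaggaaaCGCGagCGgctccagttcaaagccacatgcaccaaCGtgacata
Zic5, chr14:122465609-122465908, minus strand: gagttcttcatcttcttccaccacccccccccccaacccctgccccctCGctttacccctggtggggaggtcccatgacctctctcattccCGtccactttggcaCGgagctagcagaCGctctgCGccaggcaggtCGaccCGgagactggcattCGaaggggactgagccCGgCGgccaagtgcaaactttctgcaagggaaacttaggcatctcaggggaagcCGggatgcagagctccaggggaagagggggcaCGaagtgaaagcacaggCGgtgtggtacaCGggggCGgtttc

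The Zic1 promoter held 31 CG dinucleotides and was 65.3% G or C. Of the 32851 promoters of this length, 10.6% held as many CG or more, and the median was 7. The Zic5 promoter held 15 CG and the Zic4 promoter 8. The RefSeq start of Zic4 lies downstream of the outermost annotated start, so the window does not cover that start. Neither the letters GGGTGGTC, a GLI core, nor CAGCAGG, a core of Zic binding, occurred in these 3 windows on either strand. They occurred in 0.807% and 10.5% of all promoters. The motifs do not overlap each other in sequence, and no match says only that these letters are not in this window.

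In the authors' segmentation of wild-type islet chromatin, which gives 1 state letter per 200 bp bin and no level, the start sites of Zic1 and Zic5 lay in state M, the bivalent state with high H3K27me3. The outermost start sites of Zic4 and Zic2 lay in state L, the bivalent state with high H3K4me3. Of the 12 annotated Zic4 transcripts 11 started in state M, as did 1 of the 2 Zic2 transcripts, so that all 4 genes had a transcript start in state M. An uninterrupted run of states L and M covered 28400 bp at the chromosome 9 pair and 39400 bp at the chromosome 14 pair. Within 20 kb of the start site, states L and M covered 88.5% of the sequence for Zic1, 80.0% for Zic4, 99% for Zic2 and 95.2% for Zic5. Over the 5127 annotated genes with a start site in L or M the median was 9.5%, with quartiles of 4% and 21%. The 4 shares exceeded those of 96.0% to 98.0% of these genes. The members of a pair lie in the same domain, so that these are 2 domains and not 4 separate observations. The segmentation averages replicates, so no spread between animals is known.

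**Figure D1:**
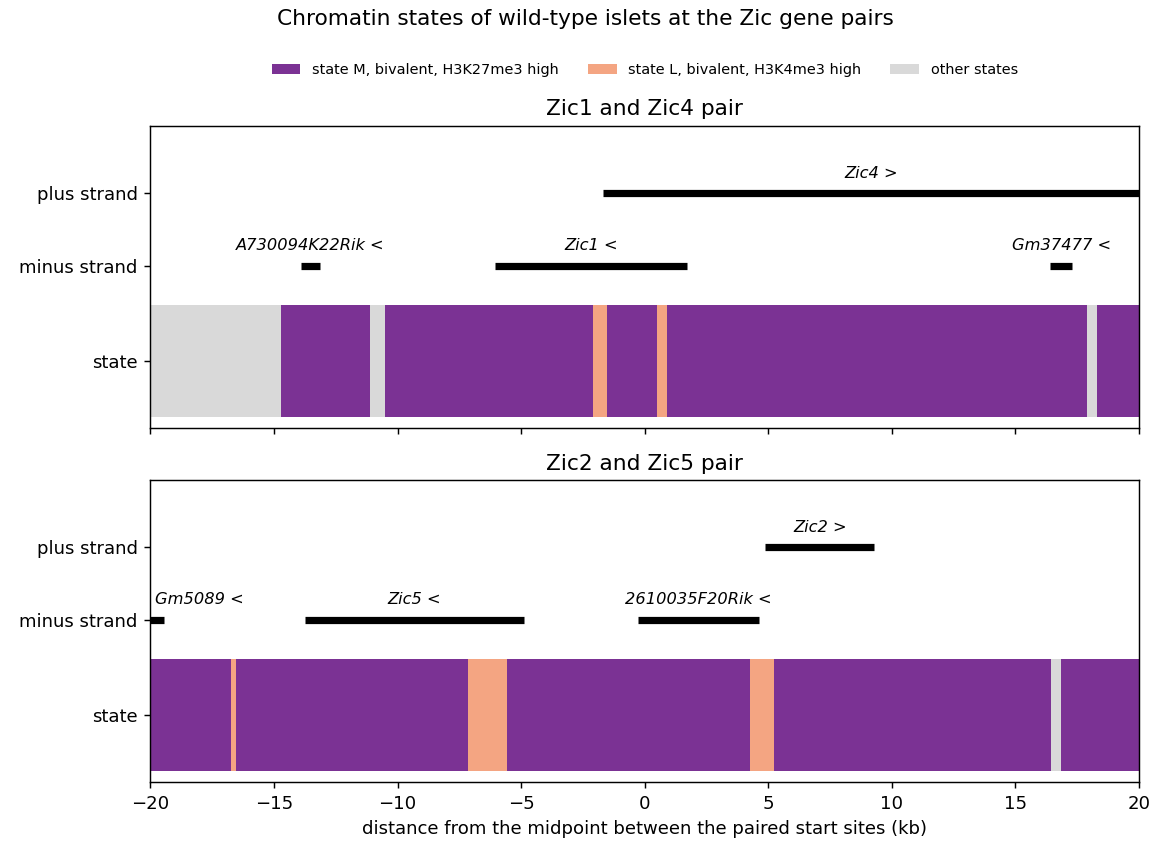
Chromatin states of wild-type islets within 20 kb of the midpoint between the paired start sites (horizontal axis, kb), with the genes drawn above as black bars by strand (arrowheads give the direction). State M (purple) and state L (orange) fill 84.3% of the window at Zic1 and Zic4 and 99% at Zic2 and Zic5; other states are grey.

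Total counts per library were 4645393 to 22925359, and levels are given as CPM, counts scaled to library sizes corrected by edgeR's TMM factors. Eed itself was at 19.3 to 33.1 CPM in the 6 wild-type libraries, 16.3 to 20.5 CPM in the 5 heterozygous and 13.4 to 15.6 CPM in the 5 βEedKO libraries, and no βEedKO library reached a wild-type one. Ins1, an insulin gene, was at 2143 and 2999 CPM in βEedKO at 25 weeks against 26820 to 47390 CPM in wild type of that age, and it fell (log2 fold change -3.85 ± 0.756, SE; adjusted p = 0.0141, edgeR). At 8 weeks the βEedKO range of 23570 to 39730 CPM overlapped the wild-type range of 28750 to 41720 CPM. The islet endocrine markers were present in every library. Heterozygous replicate 2 at 8 weeks stood apart. The brown adipocyte genes Ucp1 and Cidea reached 861.9 and 765.2 CPM in it, and its 5 skeletal muscle markers summed to 1514 CPM against 2.59 to 72.2 CPM in the other 15 libraries. Its Eed level was 17.1 CPM, against 17.2 and 20.5 CPM in the other 2 libraries of its group. Other tissue carried into this library and a mixed-up sample cannot be told apart. Results that rest on it are given with and without it.

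Zic1, which takes part in neural crest induction and cerebellar development, was nearly silent in wild-type islets. It had 0, 1 and 0 reads in wild type at 8 weeks and 0, 1 and 0 at 25 weeks. In βEedKO islets it had 33, 37 and 18 reads at 8 weeks (1.57, 1.86 and 1.56 CPM), and 406 and 722 reads at 25 weeks (30.9 and 29.1 CPM). All βEedKO libraries lay above all wild-type ones at both ages, and the βEedKO libraries of the 2 ages did not overlap. The mean in βEedKO was 1.66 ± 0.170 CPM (SD, n = 3) at 8 weeks and 30.0 ± 1.24 CPM (SD, n = 2) at 25 weeks.

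Zic4, the partner of Zic1, with which it acts in cerebellar growth, had 0 reads in all 6 wild-type libraries. In βEedKO it had 4, 15 and 5 reads at 8 weeks (0.190, 0.752 and 0.433 CPM) and 70 and 113 reads at 25 weeks (5.33 and 4.56 CPM). It lay above wild type at both ages, at a lower level than Zic1. A count of 0 over the wild-type group at 25 weeks allows up to 3 reads, or 0.0974 CPM, and at 8 weeks up to 0.0579 CPM.

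Zic2, a forebrain and neural tube factor, had 0 reads in 14 of the 16 libraries. It had 166 and 404 reads (12.6 and 16.3 CPM) in βEedKO at 25 weeks. The 3 βEedKO libraries at 8 weeks, with 49157569 counted reads in all, held 0 reads, which allows up to 0.0571 CPM. Zic5, the neighbour of Zic2 and like it active in the neural crest, had 30 and 173 reads (2.28 and 6.98 CPM) in βEedKO at 25 weeks. It had 2 reads in 1 βEedKO library at 8 weeks, replicate 4, and 0 in the other 13. The chromosome 9 pair thus had reads in all 5 βEedKO libraries, and the chromosome 14 pair had more than 3 reads only in the 2 βEedKO libraries at 25 weeks.

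**Figure D2:**
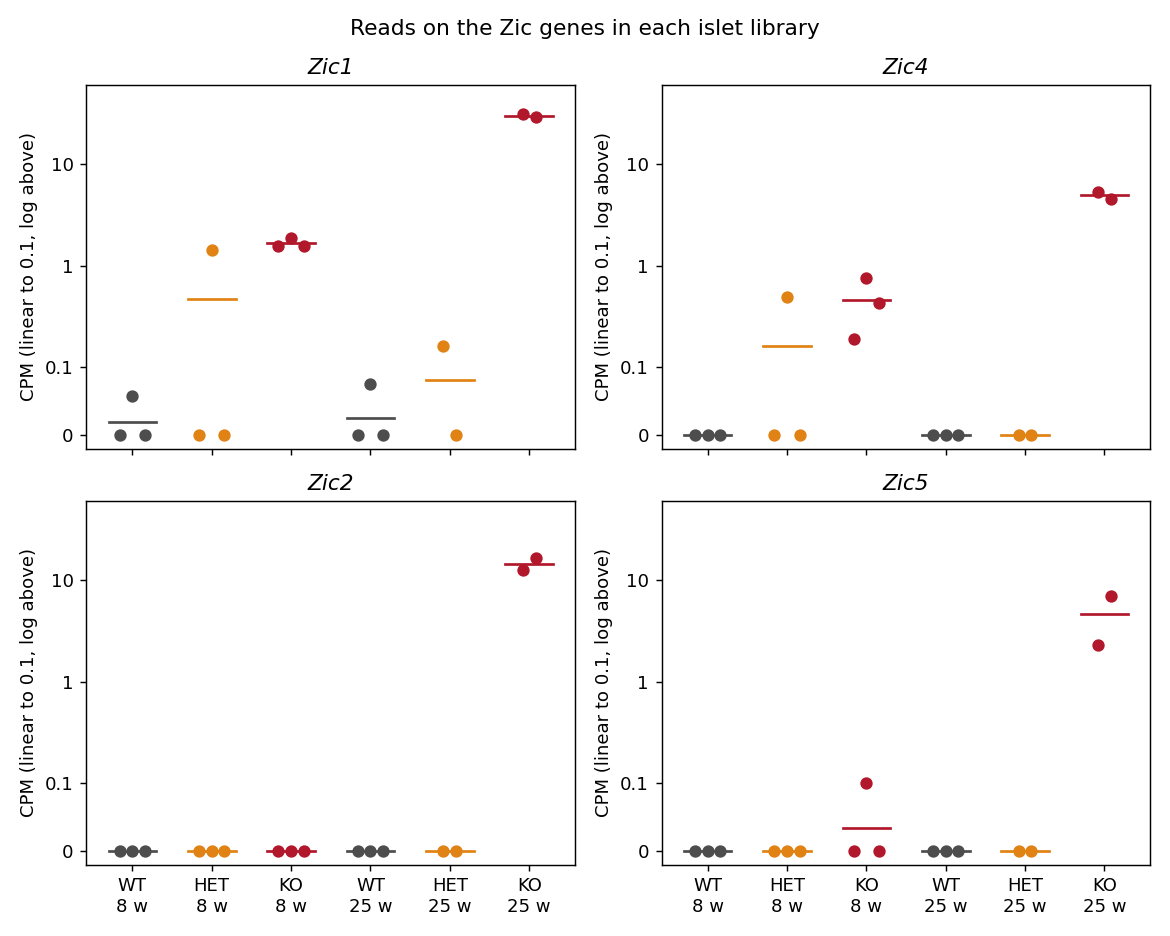
CPM of each Zic gene (vertical axis, linear up to 0.1 and logarithmic above) in the 16 islet libraries by genotype and age (horizontal axis). Each point is a library and each line a group mean; the βEedKO libraries at 25 weeks are highest for all 4 genes, and the 8-week βEedKO libraries are above 0 for Zic1 and Zic4 in all 3 libraries.

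The fitted differences are given as a description, since this contrast chose the genes. At 25 weeks the log2 fold change of βEedKO over wild type was 9.50 ± 0.738 (SE) for Zic1, 9.25 ± 1.25 for Zic4, 10.79 ± 0.954 for Zic2 and 9.15 ± 1.65 for Zic5. With wild type at or near 0 reads these fits depend on a small prior count. By reads summed over the group, and against the 3 reads that a count of 0 allows over the wild-type group, Zic2 was at least 154-fold higher, Zic5 at least 55-fold and Zic4 at least 49.6-fold. With the lower of the 2 βEedKO libraries alone these bounds were 130, 23.4 and 46.8. For Zic1, with 1 wild-type read, the ratio was 916, with an exact 95% counting interval of 164 to 36200. All 4 members passed an adjusted p of 0.05 in edgeR's quasi-likelihood test, where 4.58% of the 18685 tested genes were called higher. Among tested genes with a start site in state M the share was 14.9%, and in state L 10.7%. Each member held at most 1 read over the wild-type group of either age. The members therefore passed the filter on low counts only through βEedKO libraries and could only rise at both ages. Their calls were thus partly fixed in advance and show no excess over these shares. Leaving out either βEedKO library at 25 weeks left 1 member past the threshold, Zic1. Zic5 was also lost when wild-type replicate 3 or replicate 4 was left out. With a replicate block Zic1 and Zic2 passed and Zic4 (adjusted p = 0.0670) and Zic5 (adjusted p = 0.0725) did not. The log2 fold change of Zic1 was 11.87 without wild-type replicate 3, which held its only wild-type read of this age, and 8.86 without replicate 4. That of Zic5 was 8.06 without βEedKO replicate 3.

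At 8 weeks the log2 fold change was 5.94 ± 0.701 (SE) for Zic1 and 5.89 ± 1.15 for Zic4. The read ratio of Zic1 was 86.8, with a counting interval of 15.2 to 3470, and Zic4 was at least 7.89-fold higher by summed reads and 3.28-fold with the lowest βEedKO library alone. Of the 4 members 1, Zic1, passed the threshold, where 0.428% of genes were called higher. It did not pass with a replicate block (adjusted p = 0.187), nor with all 16 libraries in the fit, where its log2 fold change was 5.95 (adjusted p = 0.113). With the heterozygous libraries counted as controls the log2 fold change was 2.57 (adjusted p = 0.205) for Zic1 and 2.20 (adjusted p = 0.342) for Zic4, and without wild-type replicate 3 that of Zic1 was 7.72. Of the others, Zic2 had 0 reads and Zic5 2 reads in βEedKO.

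Between the ages, Zic1 was 17.8 times as high in βEedKO at 25 as at 8 weeks by summed reads (counting interval 14.3 to 22.3) and Zic4 10.6 times (6.89 to 16.9). Zic5 gave a ratio of 141 (38.5 to 1170), and Zic2 was at least 263-fold higher. Zic5 and Zic2 passed the filter on low counts only through the 25-week βEedKO libraries and could only rise. In the fit Zic1 and Zic2 passed the threshold, where 1.02% of genes were called higher at 25 weeks. Either call was lost in some fits that left out 1 library. With a replicate block 0 members passed. Without βEedKO replicate 2 at 25 weeks no member passed, without replicate 3 of that age only Zic1 did, and Zic2 was lost without replicate 4 or 5 of the 8-week βEedKO group. The difference of the βEedKO effect between the ages could not be tested with edgeR for Zic4, Zic2 and Zic5, since wild type held 0 reads at both ages. For Zic1 it was 3.56 ± 1.78 (SE, adjusted p = 0.808, edgeR), where 0.091% of genes were called with a larger effect at 25 weeks. DESeq2 called 1 member, Zic2, by a fit that rests on the same wild-type zeros. In wild-type islets, 25 against 8 weeks, 0 members were called by edgeR or by DESeq2 and none had an unadjusted p under 0.05. Wild type held 0 reads of Zic4, Zic2 and Zic5, and 1 read of Zic1 at each age. This comparison could therefore not have called a member. The share of all genes called in it was 0.0212%.

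Per kilobase of exon, the mean level in βEedKO at 25 weeks was 5.27 CPM per kb for Zic1, 5.02 for Zic2, 0.948 for Zic5 and 0.478 for Zic4. Zic1 and Zic2 overlapped, at 5.12 to 5.43 and 4.39 to 5.66 CPM per kb. Zic5 and Zic4 overlapped as well, at 0.467 to 1.43 and 0.441 to 0.515. The exons of all annotated transcripts were joined for these lengths, which gives 10335 bp for Zic4 with its 12 transcripts and 2880 bp for Zic2. In each pair, then, 1 gene was several times as high as its partner. Among the 1557 genes with a start site in L or M and at most 1 read over wild type at 25 weeks, Zic1 ranked 3 by mean CPM in βEedKO, Zic2 16, Zic4 63 and Zic5 70. The median of these genes was 0.0404 CPM and the 90th percentile 1.3 CPM. The members were picked because they were known to be higher in βEedKO, so high ranks were fixed in advance and are a description only.

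In the chromosome 9 pair at 25 weeks, Zic4 gave 14.7% of the 476 reads on the pair in replicate 2 (exact 95% interval 11.6% to 18.2%) and 13.5% of 835 in replicate 3 (11.3% to 16%). At 8 weeks its share was 10.8%, 28.8% and 21.7% in the 3 βEedKO libraries, with intervals that overlapped one another. In the chromosome 14 pair, Zic5 gave 15.3% of 196 reads in replicate 2 (10.6% to 21.1%) and 30.0% of 577 reads in replicate 3 (26.3% to 33.9%). These intervals cover counting error only, and libraries of every group differed by more than that over all genes.

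Heterozygous islets at 8 weeks had 0, 32 and 0 Zic1 reads and 0, 11 and 0 Zic4 reads, all in replicate 2, the library that stood apart. Its 1.42 CPM of Zic1 lay just under the 1.56 to 1.86 CPM of βEedKO at that age, and its 0.488 CPM of Zic4 inside the range of 0.190 to 0.752 CPM. The other heterozygous libraries overlapped wild type. The log2 fold change against wild type was 4.28 ± 1.57 (SE, adjusted p = 0.275, edgeR) for Zic1 and 4.63 ± 1.92 (adjusted p = 0.325) for Zic4. With a replicate block the log2 fold change of Zic1 was -2.17, and Zic4 could not be estimated. No other 8-week library shares the number of replicate 2, so the block took up that library. The -2.17 therefore rests on 1 Zic1 read in wild type against 0 in heterozygous replicates 1 and 3. Over the alternatives the adjusted p was 0.196 to 0.752 for Zic1 and 0.246 to 1 for Zic4. The call was made for 0 of the 4 members, as for 0 of all genes tested (0% called), of which 2743 had an unadjusted p under 0.05 and 413 were called by DESeq2. Zic2 and Zic5 held 0 reads in both groups, so neither could have been called. By DESeq2 0 members were called, and Zic1 and Zic4 had unadjusted p values of 0.0170 and 0.0408 by edgeR. Without replicate 2 the heterozygous group held 0 Zic1 and 0 Zic4 reads. At 25 weeks the heterozygous libraries had 3 and 0 Zic1 reads, and 0 reads on the other 3 members. Wild type of that age also held 0 reads on these 3, so none of them could have been called. By edgeR and by DESeq2 0 members were called against wild type (0% of genes called by edgeR, 210 with an unadjusted p under 0.05 and 3 called by DESeq2), and no member had an unadjusted p under 0.05.

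Outside βEedKO, libraries with a Zic1 read were libraries with brown adipocyte RNA. Ucp1, the uncoupling protein that defines brown fat, was at 861.9 CPM in heterozygous replicate 2 at 8 weeks. It was at 29.5, 34.6 and 45.7 CPM in the other 3 wild-type or heterozygous libraries with a Zic1 read. These held only 3, 1 and 1 Zic1 reads. Of the 7 such libraries without a Zic1 read, 6 had 0 to 5.19 CPM of Ucp1 and 1, wild-type replicate 4 at 25 weeks, had 37.0 CPM. The 5 βEedKO libraries had 0.0761 to 0.346 CPM of Ucp1. The 5 brown adipocyte markers summed to 3983 CPM in heterozygous replicate 2 at 8 weeks. In βEedKO they summed to 23.0 to 36.3 CPM at 8 weeks and 31.9 and 85.1 CPM at 25 weeks, and at least 4 of the 5 had a read in every library. In wild type the ranges were 14.2 to 158.1 CPM at 8 weeks and 76.1 to 253.2 CPM at 25 weeks. Skeletal muscle markers were also raised, at 1514 CPM in heterozygous replicate 2 at 8 weeks. At 25 weeks they summed to 50.9 CPM in heterozygous replicate 1 and 63.4 CPM in wild-type replicate 3. They were at 72.2 CPM in wild-type replicate 4 of that age, without a Zic1 read. In wild-type replicate 3 at 8 weeks, with a Zic1 read, they were at 4.65 CPM. The part of brown adipocytes or muscle in the Zic1 reads of wild-type and heterozygous libraries was not tested. The same heterozygous library had 0 reads on Zic2 and Zic5.

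**Figure D3:**
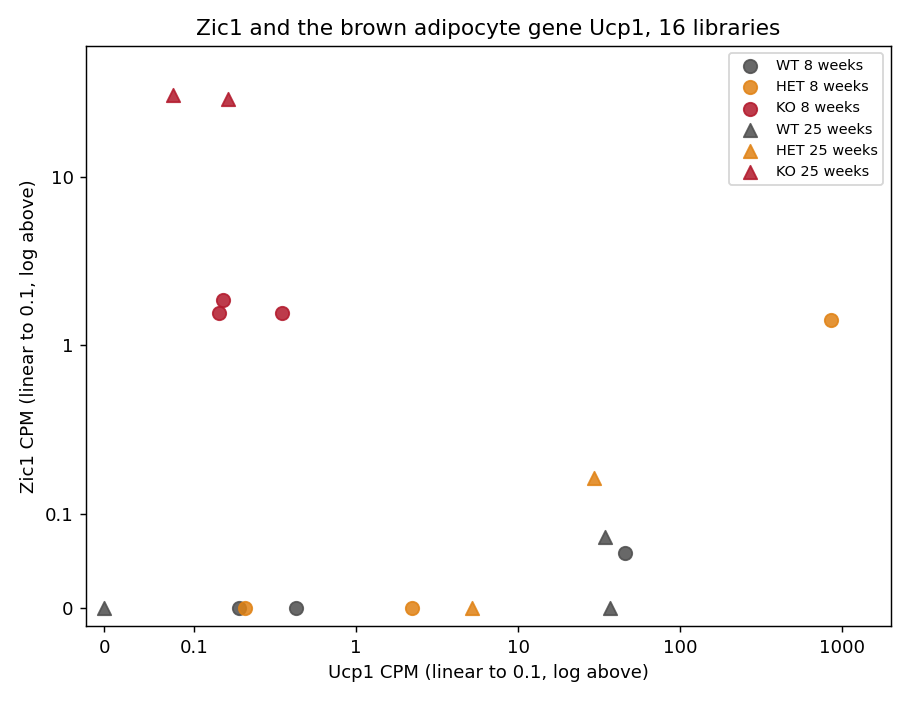
Zic1 against Ucp1 in the 16 libraries, in CPM (both axes linear up to 0.1 and logarithmic above); colours give the genotype and shapes the age. The 5 βEedKO libraries have 1.56 to 30.9 CPM of Zic1 with at most 0.346 CPM of Ucp1, and the heterozygous library at the right has 1.42 CPM of Zic1 with 861.9 CPM of Ucp1.

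Markers of other cells also moved with βEedKO at 25 weeks. The 8 fibroblast and pericyte markers summed to 365.7 and 464.6 CPM, against 150.1 to 227.2 CPM in wild type, and all 8 had reads in every library. Of these 4 rose (Col1a1, Col1a2, Dcn and Pdgfra) and 0 fell, where 4.58% of all genes were called higher, and the median log2 fold change of the 8 was 1.67 against 0.03 over all genes. At 8 weeks they summed to 177.7 to 291.9 CPM in βEedKO and 140.6 to 198.5 CPM in wild type. Their median log2 fold change was then 0.93, 0 passed by edgeR, 4 had an unadjusted p under 0.05 and DESeq2 called 3. The 6 Schwann cell markers summed to 103.6 and 151.7 CPM, inside the wild-type range of 89.2 to 163.3 CPM, and 0 of 6 passed by edgeR or DESeq2, or had an unadjusted p under 0.05. The neuron markers summed to 22.4 and 29.6 CPM, below the 42.7 to 72.8 CPM of wild type. The endocrine markers summed to 42650 and 48230 CPM against 141400 to 241700 CPM, but only 2 of the 7 fell, Ins1 and Iapp, and the median log2 fold change of the 7 was -0.30. Ins2 was at -3.42 ± 0.959 (adjusted p = 0.0626), and Gcg, Sst, Ppy and Chga were between -0.30 and 1.00 and did not pass. The 6 acinar markers summed to 130500 CPM in βEedKO replicate 2, the highest of all 16 libraries, and to 3478 CPM in replicate 3, the lowest, so that the 2 libraries behind the 25-week values stood apart from each other. The 5 macrophage markers summed to 369.8 and 104.0 CPM against 75.8 to 148.3 CPM in wild type. Of the acinar markers 0 of 6 and of the macrophage markers 0 of 5 passed by edgeR or DESeq2, and 0 and 1 had an unadjusted p under 0.05. In bulk islets, more cells of a type and more RNA per cell cannot be told apart, and the part of other cells in the Zic reads was not tested. Heterozygous replicate 2 at 8 weeks had 341.1 CPM of the fibroblast and pericyte markers.

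The chromatin around the pairs holds few genes with reads. Of 30 counted neighbours within 500 kb of the midpoints, 9 passed the filter on low counts. Of these 1 rose and 1 fell in βEedKO at 25 weeks, where 6.6% of all genes were called in either direction. The one that rose, 2610035F20Rik, a noncoding transcript on the opposite strand that starts next to Zic2, had 25 and 65 reads in βEedKO at 25 weeks (1.90 and 2.62 CPM). It had 3 reads over the 8-week βEedKO group and 0 in wild-type and heterozygous islets. It thus passed the filter on low counts only through βEedKO libraries and could only rise. Its log2 fold change was 8.12 ± 1.66 (SE, adjusted p = 0.0397, edgeR), and with a replicate block the adjusted p was 0.119. The gene that fell was Ggact, a metabolic enzyme gene 443.2 kb away, at -1.08 ± 0.268 (adjusted p = 0.0384). Pcca, a propionyl-CoA carboxylase subunit gene 63.8 kb from the midpoint, was at -0.47 ± 0.267 (adjusted p = 0.369), and Clybl, Tm9sf2 and the other 4 were past no threshold. Leaving out any of the 5 libraries of this age left 0 neighbours called. Of the 14 neighbours of Zic1 and Zic4 only Gm5620 could be tested, at 1.51 ± 0.822 (adjusted p = 0.345).

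**Figure D4:**
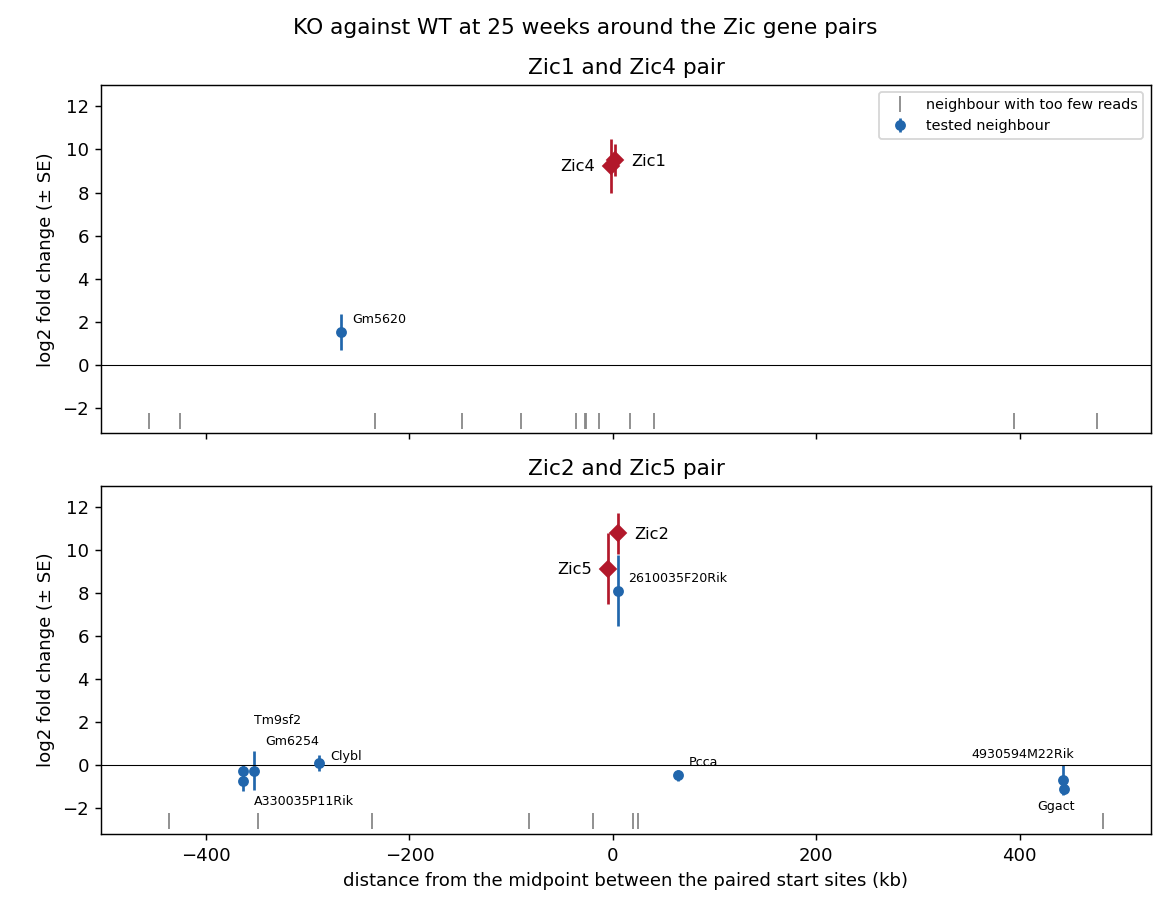
Log2 fold change of βEedKO over wild type at 25 weeks (vertical axis, ± SE) by distance of the start site from the midpoint between each Zic pair (horizontal axis, kb). Red diamonds are the Zic genes, blue points the 9 tested neighbours and grey ticks neighbours with too few reads; 2610035F20Rik at 8.12 lies with the Zic genes, and the other neighbours lie between -1.08 and 1.51.

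Of the list of relatives, 6 genes were tested, 3 Gli and 3 Glis genes, of which 1 rose and 0 fell at 25 weeks, where 4.58% of all genes were called higher, with a median log2 fold change of 1.77 against 0.03 over all genes. The one that rose was Gli1, a transcriptional effector and target of Hedgehog signalling, at 3.65 ± 0.430 CPM (SD, n = 2) against 0.322 ± 0.212 CPM (SD, n = 3) in wild type. Its log2 fold change was 3.49 ± 0.705 (SE, adjusted p = 0.0163, edgeR). The call was lost without wild-type replicate 4, without either βEedKO library of this age and with a replicate block (adjusted p = 0.0807). Gli2, the main activator of the pathway, was at 5.16 ± 1.43 (adjusted p = 0.0603), and Gli3, mainly a repressor, at 1.58 ± 1.05 (adjusted p = 0.453). At 8 weeks 0 of the 6 passed by edgeR, 2 had an unadjusted p under 0.05 and DESeq2 called 1, where 0.434% of all genes were called in either direction.

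Of 18 other genes of the neural plate and neural crest, 14 were tested, and 6 rose and 0 fell at 25 weeks, where 4.58% of all genes were called higher. Their median log2 fold change was 4.29 against 0.03 over all genes. They included Pax3, Msx1, Tfap2a, Sox1 and Sox3. Pax3, Sox1 and Sox3 had 0 reads in wild type at both ages. These genes passed the filter on low counts only through βEedKO libraries and could only rise. The counts and the median of the list were therefore partly fixed in advance. Pax3, a neural crest and dorsal neural tube factor, had 414 reads over the 2 βEedKO libraries at 25 weeks (11.1 ± 0.700 CPM; SD, n = 2) and 0 in wild type. Msx1, a homeobox factor of the neural plate border, went from 0.806 ± 0.379 CPM (SD, n = 3) in wild type to 16.9 ± 7.33 CPM (SD, n = 2). Sox1, a neural progenitor factor, had 263 reads in βEedKO at 25 weeks and 0 in every other group, the same order of groups as Zic2. At 8 weeks 2 of the 14 rose, Msx1 among them, where 0.428% of all genes were called higher. The 8 other tested genes did not pass an adjusted p of 0.05 at 25 weeks, and their log2 fold changes ranged from -1.45 for Snai2 to 6.49 for Msx2. Without wild-type replicate 3 or 4, or without either βEedKO library of this age, 3 of the list passed, and 3 passed with a replicate block, Pax3 and Msx1 among them.

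The other 5 ectopic factors that the study had expressed together with Zic1 were selected by the study on these samples, so their direction is not independent evidence. All 5 rose at 25 weeks. In βEedKO at that age Zic1 was at 30.0 CPM, Pitx1, a hindlimb and pituitary factor, at 26.1 ± 6.94 CPM (SD, n = 2), and Barx1, a stomach mesenchyme factor, at 19.2 ± 3.91 CPM. Gata2, a haematopoietic factor, was at 46.2 ± 6.56 CPM, Twist1, a mesenchymal factor, at 16.4 ± 5.06 CPM, and Hoxb7, a homeobox factor, at 11.3 ± 2.41 CPM. Wild type of that age had 3.09 ± 0.538 CPM (SD, n = 3) of Gata2 and at most 0.202 CPM, as a mean, of the other 4. At 8 weeks 1 of the 5, Twist1, passed the threshold, at 4.87 ± 1.57 CPM (SD, n = 3) in βEedKO. Pitx1, with 23 reads over the 8-week βEedKO group, had fewer than the 88 of Zic1. Heterozygous islets at 8 weeks had 0 reads on Barx1 and Pitx1, also in the library with Zic1 reads. They had 8 reads on Hoxb7, at 0.138 to 0.178 CPM, and 47 on Twist1, at 0.729 ± 1.02 CPM (SD, n = 3). The highest Twist1 value, 1.91 CPM, was that of replicate 2, the library that stood apart, and rests on it alone. The lowest was 0.0689 CPM, against at most 0.174 CPM in wild type of that age. Gata2 was at 3.32 ± 0.831 CPM (SD, n = 3) there and 3.28 ± 0.905 CPM in wild type.

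The genes whose log2 CPM over the 16 libraries was most like that of each member, by Pearson's r as a description, differed between the pairs. The libraries share depth and composition, and the values rest largely on the βEedKO libraries at 25 weeks. Zic4 was the gene most like Zic1 among 18827 (r = 0.981), followed by the homeobox gene Hoxd8 (0.981) and C1qtnf1 (0.971). Zic1 was likewise the gene most like Zic4, followed by C1qtnf1 (0.959) and the neural midline factor gene Sim2 (0.954). The genes most like Zic2 were Sp9, Hoxc12 and Tmem132d, at r of at least 0.9995. Like Zic2, these 3 had 0 reads in every library other than βEedKO at 25 weeks. The genes most like Zic5 were Atp12a (0.998), Evx1os (0.996) and Dlx3 (0.996), each with 2 reads over βEedKO at 8 weeks and 0 in wild-type and heterozygous islets. Evx1os is an antisense gene, whose reads cannot be told from those of its partner without strand. Zic5 ranked 44 by likeness to Zic2, and Zic2 ranked 18 by likeness to Zic5 (r = 0.983 for both). The 9 genes other than members had a start site in state M. Of the 18685 genes tested in the fit of 4 groups, 1639 had such a start site. Of the 856 called higher in βEedKO at 25 weeks, 244 had one. The 9 were picked by likeness to members nearly silent outside βEedKO, so their state is a description.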

How the data were processed

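Gene counts are raw, as the authors deposited them: reads were mapped to GRCm38 by TopHat (version 2.0.13) and assigned to Gencode M9 genes by featureCounts (Subread 1.5.0-p1). The strand setting is not given in the sources used here. The authors deposited EpicSeg state letters (another kind of value, with no level) in 200 bp bins of the 19 autosomes. Single-cell and ChIP-seq signal data were not used here. Of 47937 counted genes, 47224 matched a later Gencode release of the same build by identifier.

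The tests used edgeR 4.0.16 under R 4.3.3 (TMM, filterByExpr, quasi-likelihood test, Benjamini-Hochberg adjustment, threshold 0.05) in a fit of 4 groups (11 wild-type and βEedKO libraries, 18685 genes) and a fit of all 6 (16 libraries, 18828 genes); DESeq2 1.42.0 was an alternative, with changes of scaling, filter, control, block and libraries. CPM are from the fit of 6 groups. Each SE is the size of the log2 fold change over the square root of F. Intervals and the floor of 3 reads cover counting error only. No 2 libraries of a group were alike within counting noise (chi-square per degree of freedom at least 31.0). The scripts were tested on simulated counts. Members and lists were chosen with earlier results of these data known; the skeletal muscle markers were chosen after seeing these libraries. Named genes are the members, checks, list genes past the threshold, Gli1 to Gli3, neighbours within 500 kb and the 3 genes most like each member by Pearson's r of log2 CPM (prior count 2); Snai2, Msx2, the marker genes Ucp1 and Cidea and the fibroblast genes were named after their values were seen. Some genes that this rule covers are not reported here. Wild-type and βEedKO libraries share 2 replicate numbers at each age, and same-numbered libraries deviated together from their group means (r = 0.457 and 0.163 at 8 weeks, 0.176 and 0.255 at 25 weeks), so a fit with the number as a block is given where it changes a call. The pairing comes from the numbers in the titles and this check alone. At 8 weeks wild-type replicates 3 and 4 had r = 0.45 and 0.329 with βEedKO replicate 5, whose number they do not share. With only 2 βEedKO libraries at 25 weeks, their deviations mirror each other (r = 0.176 and -0.176, 0.255 and -0.255). Those values therefore say little about the pairing.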

Additional observations from a re-analysis of the deposited data

How the results depend on the processing

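The 4 members called in βEedKO at 25 weeks became 2 with a replicate block and 1 to 4 with a library left out. The 1 called at 8 weeks became 2 with DESeq2 and 0 with a replicate block, with all 16 libraries in one fit and with heterozygous libraries added to the controls. The 2 called between the ages in βEedKO became 4 with DESeq2, 0 with the block, 1 with all 16 libraries and 0 to 2 with a library left out. The difference of the βEedKO effect between ages gave 0 members, and 1 with DESeq2. The 1 relative called became 2 with DESeq2, with no filter and with all 16 libraries, 0 with the block, and 0 to 2 with a library left out. The 6 neural genes became 3 with the block and 3 to 8 with a library left out. The 2 neighbours became 1 with library size alone, with no filter, with the block and within 200 kb, and 0 to 2 with a library left out. Counting any transcript start raised the members in state M from 2 to 4. The log2 fold change of Zic1 in heterozygous islets at 8 weeks, 4.28, was -2.17 with the replicate block. The block took up heterozygous replicate 2, whose number no other 8-week library has. The -2.17 thus rests on 1 wild-type read against 0. Without heterozygous replicate 2 at 8 weeks Zic1 and Zic4 had no more than 1 read in either group, and no fold change was taken. The causes were not tested, though fits with a library left out or blocked compare fewer samples; with 1 library left in a group, it is assumed to vary like the others. The replicate block changed no call of the 5 other ectopic factors or of the members in the heterozygous and wild-type age comparisons. Depth limits wild-type replicate 2 at 25 weeks most, where 3 reads are 0.654 CPM.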
